A study of Homo sapiens with 12 samples.

Results

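Immediate early genes are switched on within minutes of a growth factor or stress signal, without new protein synthesis, and their transcripts are short-lived. Extracellular signal-regulated kinase (ERK) and the stress kinases JNK and p38 act on transcription factors bound ahead of these genes, among them serum response factor (SRF) with its ternary complex partners of the ELK group. Many of the products are transcription factors themselves: the FOS and JUN proteins pair to form AP-1, EGR1 is a zinc finger protein, and ATF3 is also a gene of the integrated stress response. Others act as brakes, such as DUSP1, a phosphatase that inactivates the kinases. The transcripts of 10 such genes are described here: EGR1, FOS, FOSB, FOSL1, JUN, JUNB, IER2, IER3, ATF3 and DUSP1. They were picked by name from 19774 measured genes, and were selected on their changes from the control of the same line and on the difference between cells with both miR-200 clusters and cells with a single cluster. Those changes are therefore given as a description, with no test. The 10 genes have 17 probe sets of 40920 that name a single gene, and each gene was read from its brightest probe set by mean level.

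The arrays came from NCI-H716, MDST8 and HUTU-80, established lines with methylated miR-200 loci that the labels give as colorectal cancer; HUTU-80 is known to derive from the duodenum. The miR-200 microRNAs are made from a pair of clusters, written here as the labels do, and were brought back by lentivirus. The groups were 2 arrays with both clusters (NCI-H716 and MDST8), 4 with miR-200c141 (2 in HUTU-80, 1 in each other line), 3 with miR-200ba429 and 3 controls, the last 2 groups with 1 array in each line. Cells were sorted for the GFP carried by the virus at 48 hours, and RNA was taken on day 7. Cells with both clusters were miR-200ba429 cells to which miR-200c141 virus was added 24 hours after the sort. A second virus is given for no other group, so having both clusters and receiving a second virus cannot be told apart here. The sources used here do not say what the control cells received, nor what the ratios 1:3 and 1:5 in the titles of the HUTU-80 pair with miR-200c141 mean. The pair entered the model as its mean, which left 11 samples. No line has a replicate of a construct otherwise, and the labels do not name separate cultures. The p-values thus measure only the spread between these samples, which may be technical. That spread also holds any difference between the lines in their response to a construct.

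The microRNAs that were put back are shown because their seed (bases 2 to 8, in capitals) sets what they can pair with. The mature sequences and their GRCh38.p14 positions, all on the plus strand, are from RefSeq, with miR-200c-3p at chr12:6963742-6963764, miR-141-3p at chr12:6964155-6964176, miR-200b-3p at chr1:1167160-1167181, miR-200a-3p at chr1:1167916-1167937 and miR-429 at chr1:1169055-1169076. Each cluster holds both seeds, which differ at a single base.
miR-200c-3p: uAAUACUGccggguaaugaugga
miR-200b-3p: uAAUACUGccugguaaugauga
miR-429: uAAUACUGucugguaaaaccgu
miR-141-3p: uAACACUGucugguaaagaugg
miR-200a-3p: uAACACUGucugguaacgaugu

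The region around the start of EGR1 is shown because EGR1 had the widest range of the 10 genes across the lines. It covers 250 bases before to 50 after the start, chr5:138465229-138465528 on the plus strand of GRCh38.p14 (RefSeq), with the CArG boxes, the element SRF binds, in capitals.
EGR1: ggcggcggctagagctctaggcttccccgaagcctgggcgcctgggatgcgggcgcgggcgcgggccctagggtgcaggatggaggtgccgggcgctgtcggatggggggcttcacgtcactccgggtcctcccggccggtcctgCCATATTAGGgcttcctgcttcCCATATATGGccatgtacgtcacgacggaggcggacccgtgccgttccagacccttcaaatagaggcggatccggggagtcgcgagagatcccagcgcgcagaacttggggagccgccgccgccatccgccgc
A pair of CArG boxes began 105 and 83 bases before the start. Windows of this kind were found for 8 of the 10 genes, not for FOSL1 and IER3, and a CArG box lay in 1 of the 8, EGR1, against 1.29% of 35116 promoters. The cyclic AMP element TGACGTCA lay in that of DUSP1 alone, 125 bases before its start, and in 1.85% of promoters. The AP-1 site TGANTCA lay in 0 of the 8 and in 7.71%, and the SP1 box GGGCGG in 6 of the 8 and in 45.0%, each motif searched on both strands. None of these strings contains another. A match is a stretch of letters, not a measured site.

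All values are log2 intensities as the authors deposited them. The highest value of 23 nonspecific control probe sets, 5.43, served as the background level. Array medians over all probe sets lay between 3.60 and 3.66. Of the 9 markers of intestinal epithelium, 6 were above background in the control of NCI-H716, 1 in that of MDST8 and 1 in that of HUTU-80, and their summed linear intensity spanned 4478 to 14279 in NCI-H716, 1041 to 3651 in MDST8 and 243.1 to 2304 in HUTU-80. Leukocyte and endothelium markers lay at background on all 12 arrays (0 of 3 and 0 of 3). Fibroblast markers were above background in the controls at 2 of 6 in NCI-H716, 4 of 6 in MDST8 and 5 of 6 in HUTU-80, with sums of 4783 to 6106, 12308 to 13234 and 8949 to 11508 in that order of lines. The arrays with both clusters had the largest difference between 3′ and 5′ probe sets of their line, a sign of RNA quality. For ACTB it was 2.63 log2 units in NCI-H716 with both clusters, against at most 2.40 on the other arrays of that line, and 2.02 in MDST8 with both clusters, against at most 1.54. GAPDH had 0.351 against at most 0.325 in NCI-H716 and 0.383 against at most 0.324 in MDST8. The part of these differences in any result with both clusters was not tested.

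JUN, IER2, IER3 and DUSP1 were above background on all 12 arrays. ATF3 was above it on 11, EGR1 and FOSL1 on 9 each, JUNB on 7, FOS on 5 and FOSB on 0. A value at or below background is a bound on the signal and not a level, and intensities of different genes cannot be set against each other. The plot of log2 intensity by construct shows each gene on every array.

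**Figure D1:**
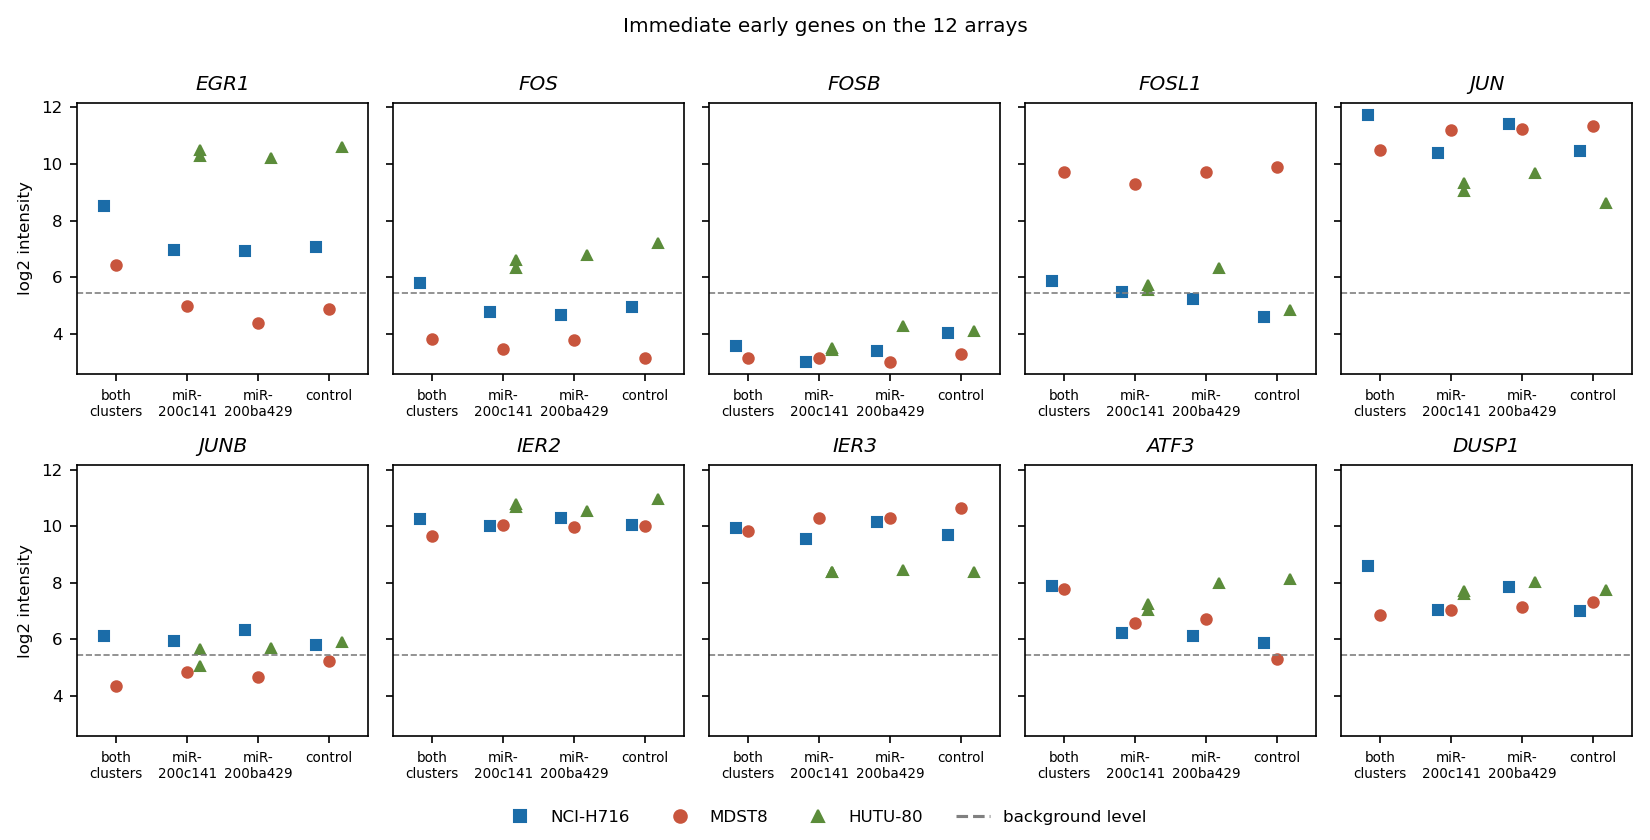
Each panel is a gene, with log2 intensity on the vertical axis and the construct on the horizontal axis. Points are single arrays of NCI-H716 (squares), MDST8 (circles) and HUTU-80 (triangles), and the dashed line is the background level of 5.43. EGR1 lay highest in HUTU-80 and FOSL1 in MDST8 on every array, and EGR1 and ATF3 stood above the other arrays of their line with both clusters in NCI-H716 and MDST8.

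The zinc finger factor EGR1 stood higher with both clusters than on any other array of the line, in both lines that carried them. Its log2 intensity in NCI-H716 was 8.53 with both clusters, 6.94 with miR-200c141, 6.92 with miR-200ba429 and 7.07 in the control. In MDST8 it was 6.41 with both clusters, 4.98 with miR-200c141, 4.39 with miR-200ba429 and 4.86 in the control. In MDST8 the array with both clusters alone was above background, so that the difference there is a bound, at least 1.97-fold higher than the control, while in NCI-H716 it was 2.74-fold. HUTU-80 had 10.27 and 10.51 with miR-200c141 (titled 1:3 and 1:5), 10.22 with miR-200ba429 and 10.59 in the control. With a single cluster this probe set stayed within 0.47 log2 units of the control in all 3 lines. The arrays read RNA of many cells, so more RNA per cell and more cells with the transcript cannot be told apart. The fitted difference was 1.48 ± 0.17 between both clusters and control (SE, 2 samples against 3) and 1.68 ± 0.15 between both and single clusters. Single clusters gave −0.07 ± 0.14 for miR-200c141 and −0.33 ± 0.14 for miR-200ba429 against control. The value for miR-200ba429 depended on the probe set, with −0.60 for the mean of all 3 and −0.77 for the most variable one.

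In NCI-H716 the other EGR1 probe sets also stood above the control with both clusters. Each lay below background on all 4 MDST8 arrays, so no change was measured with them there. The next brightest had 7.62 with both clusters in NCI-H716, against 5.70 with miR-200c141, 4.79 with miR-200ba429 and 5.86 in the control. In MDST8 it stayed below background on all 4 arrays, with 5.23 with both clusters, 3.87 with miR-200c141, 3.50 with miR-200ba429 and 4.11 in the control. In NCI-H716 the dimmest was above background with both clusters alone, at 5.80, against 5.26 in the control, at least 1.30-fold. In HUTU-80 these 2 probe sets lay below the control on every construct array, with changes of −0.52 to −0.72.

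ATF3, a stress-induced factor of the same basic leucine zipper class as FOS and JUN, had the largest fitted difference of the 10 genes between both clusters and control. Its log2 intensity in NCI-H716 was 7.86 with both clusters, 6.22 with miR-200c141, 6.11 with miR-200ba429 and 5.87 in the control. MDST8 had 7.78 with both clusters, 6.56 with miR-200c141, 6.73 with miR-200ba429 and 5.31 in the control. The control of MDST8 was the single array below background, so that the changes there were at least 5.11-fold, 2.19-fold and 2.46-fold, in the same order. In NCI-H716 both clusters gave 3.99-fold. In HUTU-80 each construct lay below the control, with 7.25 and 7.04 with miR-200c141, 7.98 with miR-200ba429 and 8.11 in the control. The fitted difference was 1.93 ± 0.38 for both clusters against control and 1.57 ± 0.34 against single clusters. The fit draws on all 3 lines, including HUTU-80, which has no array with both clusters. With only the groups compared the differences were 2.23 and 1.42. The 2 further ATF3 probe sets lay below background on every array, between 3.00 and 4.57.

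Among all genes, 2.33% were called higher and 3.81% lower with both clusters against control at an adjusted p under 0.05 in limma, and 0.273% higher and 1.39% lower against single clusters. EGR1 and ATF3 were the 2 of 10 called higher in each of these comparisons, and 0 were called lower. Since these comparisons chose the genes, nothing is read from those counts. ATF3 was not called against control without NCI-H716 (1.85), without its control (1.94), without the MDST8 array with both clusters (2.04) or with the mean of all probe sets (0.51). Fitting only the groups compared, or leaving out the term for line, ended the calls of ATF3 (2.23 and 1.39) and of EGR1 (1.50 and −0.04) against control. Against single clusters ATF3 was called in 8 of 23 other settings. Of the 15 that left out an array or a line (1.42 to 1.84), 3 kept the call, those without MDST8, the MDST8 control or the HUTU-80 array titled 1:5. It was also not called with the mean of all probe sets (0.44), with no variance trend (1.57) or without the term for line (1.03).

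FOS, the classic partner of JUN, lay below background on all 4 MDST8 arrays. In NCI-H716 it crossed background only with both clusters, at 5.79, against 4.75 with miR-200c141, 4.65 with miR-200ba429 and 4.94 in the control, which is at least 1.29-fold higher than the control. HUTU-80 held it above background throughout, at 6.32 and 6.59 with miR-200c141, 6.79 with miR-200ba429 and 7.20 in the control, so that each construct stood below the control there. The fitted difference between both clusters and control was 0.61 ± 0.30. FOSB, its close relative, did not exceed 4.28 on any array, below background everywhere, and no fold is given.

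FOSL1, the FOS family member known as FRA-1, was near background outside MDST8. It stood at 5.85 with both clusters in NCI-H716, 5.47 with miR-200c141, 5.24 with miR-200ba429 and 4.59 in the control. HUTU-80 had 5.71 and 5.55 with miR-200c141, 6.32 with miR-200ba429 and 4.85 in the control. In these lines the control was below background and the brightest construct array was at least 1.34-fold higher in NCI-H716 and at least 1.86-fold higher in HUTU-80. MDST8, where the gene was strongly detected, had every construct below the control, with 9.72 with both clusters, 9.28 with miR-200c141, 9.71 with miR-200ba429 and 9.88 in the control.

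JUN, the core AP-1 subunit, lay on opposite sides of the control in the lines that received both clusters. Its log2 intensity in NCI-H716 was 11.73 with both clusters, 10.40 with miR-200c141, 11.42 with miR-200ba429 and 10.47 in the control. MDST8 had 10.50 with both clusters, 11.21 with miR-200c141, 11.25 with miR-200ba429 and 11.34 in the control. Against the control, JUN with both clusters was thus 2.40-fold higher in NCI-H716 and 1.79-fold lower in MDST8. All 3 JUN probe sets showed this, with changes of 1.26, 1.31 and 1.40 log2 units in NCI-H716 and −0.84, −0.90 and −1.33 in MDST8. HUTU-80 had 9.32 and 9.03 with miR-200c141, 9.68 with miR-200ba429 and 8.60 in the control, all constructs above the control. The fitted differences, 0.36 ± 0.38 against control and −0.03 ± 0.34 against single clusters, pool these opposite values and draw on HUTU-80 as well. With only the groups compared they were 0.21 and 0.05.

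DUSP1, the phosphatase that removes the activating phosphates from p38, JNK and ERK, also lay above the control in NCI-H716 and below it in MDST8 with both clusters. In NCI-H716 it stood at 8.57 with both clusters, 7.05 with miR-200c141, 7.83 with miR-200ba429 and 6.99 in the control, a 2.99-fold difference between both clusters and control. MDST8 had 6.85 with both clusters, 7.03 with miR-200c141, 7.14 with miR-200ba429 and 7.30 in the control, where the array with both clusters was the lowest. HUTU-80 had 7.61 and 7.72 with miR-200c141, 8.02 with miR-200ba429 and 7.73 in the control. A further DUSP1 probe set lay below background on every array, at 3.19 or less.

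JUNB, an AP-1 subunit, lay below background in MDST8 on all arrays and between 5.81 and 6.31 in NCI-H716. HUTU-80 had it at 5.05 and 5.65 with miR-200c141, 5.70 with miR-200ba429 and 5.91 in the control, each construct below the control and the first of these below background. IER2, a nuclear protein of the immediate early response, ranged over 9.66 to 10.97 on all 12 arrays. IER3, a regulator of survival and ERK signalling, stood at 9.83 with both clusters in MDST8, against 10.63 in the control, and at 9.92 in NCI-H716, against 9.70. Their fitted differences between both clusters and control were −0.35 ± 0.29 for JUNB, −0.16 ± 0.16 for IER2 and −0.26 ± 0.20 for IER3.

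Counted over the 10 genes, 9 were above the control and 1 below it with both clusters in NCI-H716 (median 1.06), and 3 above and 7 below in MDST8 (median −0.26). A change over 1 log2 unit upwards was seen for 5 of 10 in NCI-H716, namely EGR1, FOSL1, JUN, ATF3 and DUSP1, against 2.82% of all genes, and for 2 of 10 in MDST8, EGR1 and ATF3, against 3.2%. Falls of that size were seen for 0 of 10 in each line, against 2.84% in NCI-H716 and 3.73% in MDST8. Of these changes, 3 start from a control below background, so that their size is not measured: the bounds are at least 1.34-fold for FOSL1 in NCI-H716 and at least 1.97-fold for EGR1 in MDST8, both short of 1 log2 unit, and at least 5.11-fold for ATF3 in MDST8. All are changes between single arrays with no replicate check, and they belong to the comparison that chose the genes. With a single cluster, miR-200c141 left 4 above and 6 below the control in NCI-H716, 4 and 6 in MDST8 and 2 and 8 in HUTU-80, and miR-200ba429 left 7 and 3, 2 and 8, and 5 and 5 in that order of lines. The share of all genes called against control was 0% for miR-200c141 and 0% for miR-200ba429, with 0 of 10 among these genes in each, while 1302 and 1214 genes had an unadjusted p under 0.05 in limma. The plot of change from the control of the line shows EGR1 and ATF3 above 0 with both clusters in NCI-H716 and MDST8. JUN and DUSP1 were both above 0 in NCI-H716 and both below it in MDST8.

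**Figure D2:**
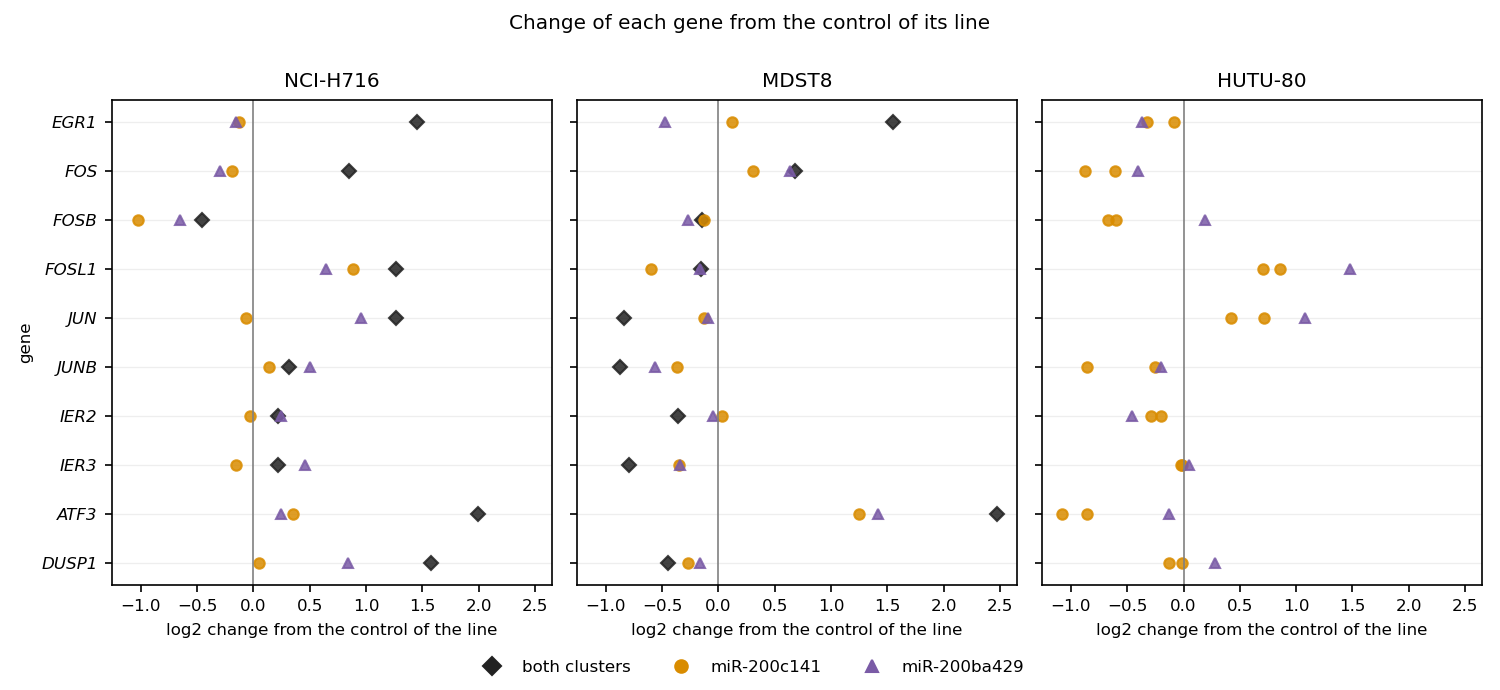
Each row is a gene and each panel a line, with the log2 change from the control array of that line on the horizontal axis. Diamonds are both clusters, circles miR-200c141 (2 arrays in HUTU-80) and triangles miR-200ba429. EGR1 and ATF3 had diamonds far to the right in NCI-H716 and MDST8. Those of JUN (1.26 in NCI-H716 and −0.84 in MDST8) and of DUSP1 (1.58 and −0.45) each changed sides of 0 between these lines.

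With each line's mean removed, the 11 samples gave Pearson correlations of 0.859 between JUN and DUSP1, 0.826 between JUNB and IER3, 0.766 between EGR1 and ATF3, 0.063 between JUN and ATF3 and −0.028 between EGR1 and JUN. The highest of any pair was 0.875 between FOS and ATF3, but FOS was above background on only 5 of the 12 arrays. JUNB was above it on 7, EGR1 on 9 and ATF3 on 11, so their correlations also include values that are bounds. These samples share their lines and controls, and the values are a description. The most variable of the 10 genes after removing line means was ATF3. Among 9364 other genes above background on at least 6 arrays, those whose pattern over the 11 samples was most like that of ATF3 were RAPH1 (r = 0.957), C10orf12 (0.943), ACVR2A (0.934), MORF4L1 (0.933) and SNAP29 (0.930). RAPH1, which binds actin regulators at the cell edge, stood at 9.11 with both clusters in MDST8, against 7.87 in the control, and at 7.16 in NCI-H716, against 6.65. ACVR2A, an activin receptor, had 7.73 against 6.71 in MDST8 and 7.80 against 6.97 in NCI-H716.

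The direct comparison of the clusters asked whether miR-200c141 and miR-200ba429 left the genes at different levels over the 3 lines. The choice of genes did not use it directly, but it is the difference of the changes from control that chose them. The signs given here are therefore a description. Limma called 0 of 10, and 0% of all 19774 genes (705 had an unadjusted p under 0.05). The difference was negative for 8 of the 10 and positive for 2, with a median of −0.26, against 0.01 over all genes. The largest were −0.52 ± 0.32 for JUN and −0.42 ± 0.30 for DUSP1 (SE, 3 samples each, limma adjusted p = 1 for both). JUN stood lower with miR-200c141 than with miR-200ba429 in each of the 3 lines.

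Levels between the lines, over all constructs, were not among the comparisons that chose the genes. The genes were picked with earlier results of these data known, so full independence cannot be claimed. The 10 genes did not share an order of lines: EGR1, FOS and ATF3 had their highest fitted level in HUTU-80, FOSL1 in MDST8, and JUN and IER3 were lower in HUTU-80 than in the other lines. In MDST8 against HUTU-80, 3 of the 10 were higher, against 20.5% of all genes, and 7 lower, against 22.9%. NCI-H716 against HUTU-80 gave 2 higher, against 20.5%, and 4 lower, against 25.1%. For NCI-H716 against MDST8 the counts were 3 higher, against 25.3%, and 2 lower, against 26.4%. Median centring used the median of each array over genes, not over all probe sets. That median was 4.82 to 4.89 in HUTU-80, 5.14 to 5.22 in MDST8 and 5.01 to 5.09 in NCI-H716, all below background. With arrays centred on it, the median difference over all genes was −0.37, −0.21 and 0.16 in these comparisons. As deposited it was −0.04, −0.03 and 0.01. The share of calls that were higher became 21.3% instead of 47.2%, 32% instead of 45% and 61.2% instead of 49%. The 10 genes then gave 3 higher and 7 lower, 2 and 5, and 6 and 1.

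EGR1 was the gene with the steepest order, NCI-H716 above MDST8 by 2.21 ± 0.13 (limma adjusted p = 3.95e-08), and both below HUTU-80, with differences of −3.44 ± 0.14 for NCI-H716 (3.32e-09) and −5.65 ± 0.14 for MDST8 (1.23e-10). The 4 arrays of each line did not overlap, with 6.92 to 8.53 in NCI-H716, 4.39 to 6.41 in MDST8 and 10.22 to 10.59 in HUTU-80. Since 3 of the MDST8 arrays were below background, the size of its difference is limited there. The next brightest EGR1 probe set, below background on all MDST8 arrays, was at least 17.2-fold lower in MDST8 than in HUTU-80 and the dimmest at least 7.50-fold lower. FOS was lower in NCI-H716 than in HUTU-80 (limma adjusted p = 4.91e-05), with no size given, since 3 of the 4 NCI-H716 arrays were below background. In MDST8 it was at least 2.61-fold lower than in HUTU-80 (limma adjusted p = 5.12e-07). Between NCI-H716 and MDST8 the limma difference of FOS passed the test (adjusted p = 1.42e-04), but no fold can be given, since the MDST8 arrays and 3 of the NCI-H716 arrays were below background. ATF3 was lower than in HUTU-80 in NCI-H716 (−1.65 ± 0.32, limma adjusted p = 0.001) and in MDST8 (−1.58 ± 0.32, 0.0016), and both calls were lost without a term for the construct (adjusted p = 0.0843 and 0.1098). Its difference between NCI-H716 and MDST8 was −0.08 ± 0.28 and not past the threshold (0.8551).

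FOSL1 stood apart in MDST8, where it was 9.28 to 9.88, against 4.59 to 5.85 in NCI-H716 and 4.85 to 6.32 in HUTU-80. NCI-H716 was below MDST8 (−4.36 ± 0.26, limma adjusted p = 6.64e-08) and MDST8 above HUTU-80 (3.94 ± 0.29, 6.35e-07). Since 2 of the 4 NCI-H716 arrays and the HUTU-80 control were below background, these sizes are differences of signal and not exact differences of level. NCI-H716 and HUTU-80 did not differ past the threshold (−0.42, 0.2955). JUN was higher than in HUTU-80 in NCI-H716 (1.82 ± 0.31, limma adjusted p = 4.82e-04) and in MDST8 (1.90 ± 0.31, 4.01e-04), and NCI-H716 and MDST8 stood −0.07 apart (0.8611), a difference that turned to 0.08 with arrays centred on their median. IER3 showed the same order, with 1.49 ± 0.16 (1.43e-05) in NCI-H716 and 1.91 ± 0.16 (2.07e-06) in MDST8 against HUTU-80. It was also lower in NCI-H716 than in MDST8 (−0.42 ± 0.15, limma adjusted p = 0.0314), a call lost in 8 of 21 other settings, median centring among them.

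IER2 was lower than in HUTU-80 in NCI-H716 (−0.57 ± 0.13, limma adjusted p = 0.004) and MDST8 (−0.79 ± 0.13, 4.36e-04). JUNB was at least 1.54-fold higher in NCI-H716 than in MDST8 (limma adjusted p = 3.16e-04), where all arrays were below background, and MDST8 was at least 1.17-fold lower than HUTU-80 (0.0145). DUSP1 was lower in MDST8 than in HUTU-80 (−0.85 ± 0.29, limma adjusted p = 0.0327), and 0.53 higher in NCI-H716 than in MDST8 without passing (0.1103). That difference of DUSP1 passed in 3 of 21 other settings, with median centring (0.68, limma adjusted p = 0.0383), without the MDST8 control (0.75, 0.034) and without the NCI-H716 control (0.75, 0.0332). The calls of JUNB and DUSP1 between MDST8 and HUTU-80 were lost without the HUTU-80 control (JUNB −0.73, adjusted p = 0.0807; DUSP1 −0.84, 0.0969), without HUTU-80 miR-200ba429 (0.0559 and 0.0843) and without MDST8 miR-200ba429 (0.0618 and 0.0889). The DUSP1 call was also lost with the mean of all probe sets (−0.36, limma adjusted p = 0.1734), with no variance trend (0.0574) and with no construct term (0.0793). FOSB passed in MDST8 against HUTU-80 (limma adjusted p = 0.0055), a difference between signals that were all below background. The markers of intestinal epithelium differ between the lines as given above, and their part in these differences was not tested.

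**Figure D3:**
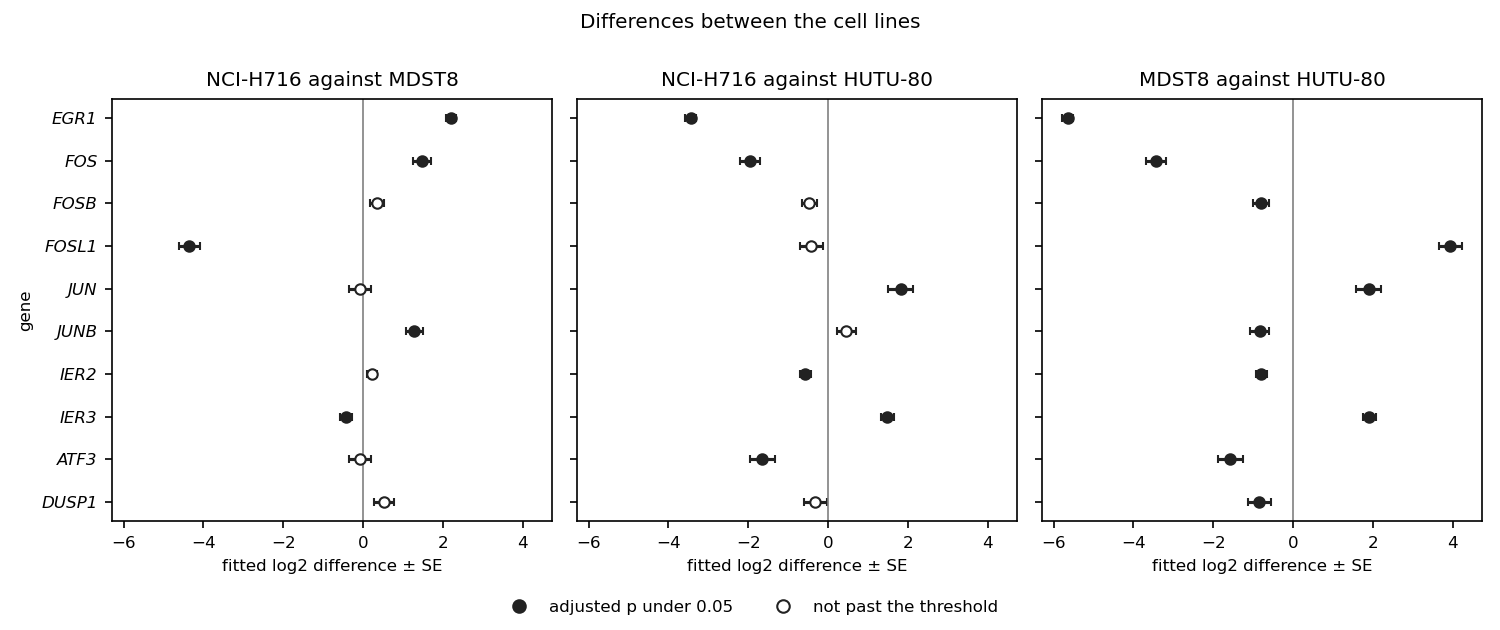
Each row is a gene and each panel a pair of lines, with the fitted log2 difference on the horizontal axis and bars of 1 SE. Filled points passed limma at an adjusted p under 0.05, and open points did not. EGR1 was below 0 in both panels against HUTU-80 and FOSL1 at −4.36 in NCI-H716 against MDST8, with 2 of 4 NCI-H716 arrays below background, while JUN and ATF3 lay close to 0 in that panel.

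The rest of the pathway was described with lists drawn from textbook knowledge. Of 27 other immediate early genes measured (EGR2 and BTG2 were not analysed here), 22 had a positive and 5 a negative fitted difference between both clusters and control, with a median of 0.43, against 4e-04 over all genes. Of the 27, 24 were above background on any array. EGR3, EGR4, NR4A1, NR4A3, ARC and CSRNP1 were below it on every array of NCI-H716 and MDST8, so no change of theirs with both clusters was measured. In limma 4 of the 27 were called higher and 0 lower, against 2.33% and 3.81% of all genes. Among the 4 were RHOB, a small GTPase (1.49 ± 0.35), KLF4, a zinc finger factor of gut epithelium (1.32 ± 0.28), and FOSL2, the FOS relative known as FRA-2 (1.26 ± 0.27). Each of the 3 was above the control of its line with both clusters, RHOB by 2.16 in NCI-H716 and 0.86 in MDST8, KLF4 by 0.94 and 1.35, and FOSL2 by 1.77 and 1.05. Against single clusters the list had 21 positive and 6 negative differences (median 0.32), with 0 called. These counts rest on the 2 arrays with both clusters and on a comparison that chose the 10 genes.

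The genes listed as ERK feedback, which hold brakes and other ERK targets such as ETV5 and CCND1, lay on both sides of 0. Of 15, 5 had a positive and 10 a negative difference between both clusters and control (median −0.16). DUSP5, a nuclear ERK phosphatase, was called higher (1.67 ± 0.37) and stood above the control by 0.89 in NCI-H716 and 2.01 in MDST8, while ETV5, an ETS factor downstream of ERK, was called lower (−1.11 ± 0.15), with −1.30 in NCI-H716 and −0.996 in MDST8. Among 17 measured kinases and factors upstream of the immediate early genes the median was −0.22, with 7 positive and 10 negative. Of the 17, 16 were above background on any array. ELK3 (−1.49 ± 0.23) and ELK4 (−1.01 ± 0.18), 2 ternary complex partners of SRF, were called lower, while their relative ELK1 was not called (−0.22 ± 0.15). MAPK8, which encodes JNK1, was called higher (0.79 ± 0.17). With both clusters ELK3 stood at −2.16 from the control in NCI-H716 and −1.03 in MDST8, and ELK4 at −0.74 and −1.35. Against single clusters too, ELK3 (−1.04 ± 0.21), ELK4 (−0.88 ± 0.16) and ETV5 (−0.69 ± 0.13) were called lower.

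Of 14 measured AP-1 target genes, 8 were positive and 6 negative with both clusters against control (median 0.14), and 0 were called. Only 10 of the 14 were above background on any array, MMP9, MMP13, PLAU and IL6 being below it throughout. Genes of the integrated stress response, where ATF4 acts ahead of ATF3, were listed together with HSPA5 and XBP1 of the unfolded protein response. Of these 10, 7 were positive and 3 negative with both clusters against control (median 0.18). Against single clusters 10 of 10 were positive (median 0.40), with 0 called in either comparison. The values of the lists are shown in the plot of fitted change by list.

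**Figure D4:**
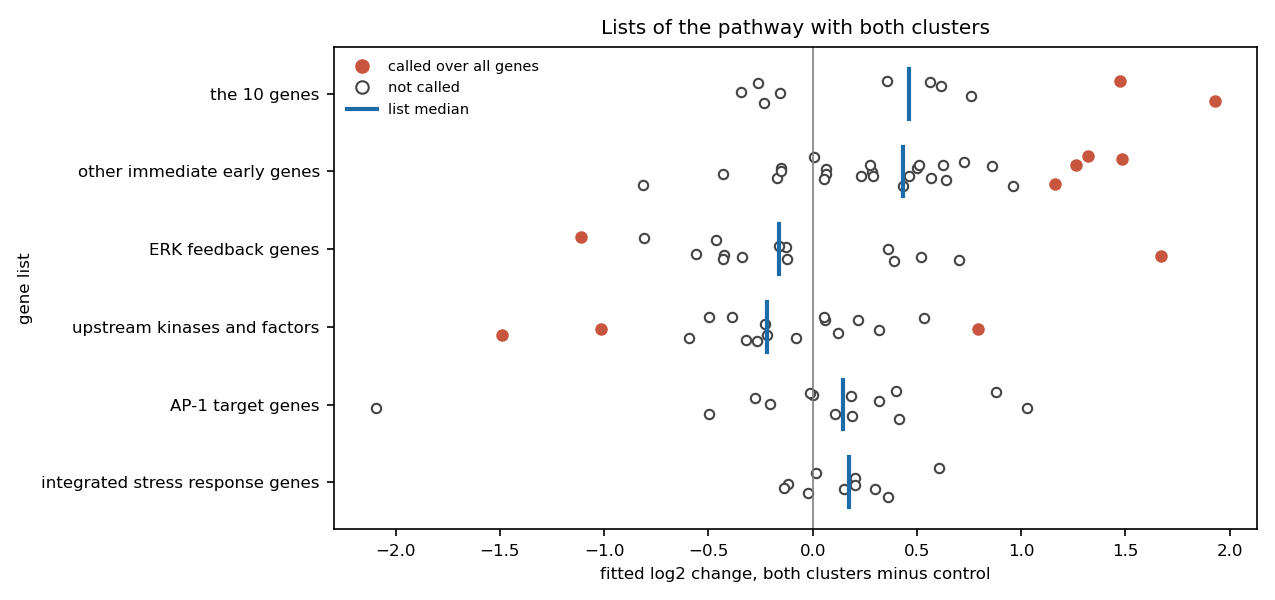
Each point is a gene, with the fitted log2 change between both clusters and control on the horizontal axis and the gene lists down the page. Filled points were called over all genes by limma, open points were not, and vertical bars are list medians. The bar for the other immediate early genes lies at 0.43, and the lowest filled point among the upstream genes is ELK3 at −1.49.

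Between the lines the lists had calls in both directions. Of the 27 other immediate early genes, 11 were higher and 12 lower in NCI-H716 than in MDST8, against 25.3% and 26.4% of all genes. In NCI-H716 against HUTU-80 they gave 6 and 16, against 20.5% and 25.1% of all genes, and in MDST8 against HUTU-80 they gave 5 and 14, against 20.5% and 22.9%. The same shares of all genes belong to the counts of the lists that follow. EGR3, the relative of EGR1, was at least 3.52-fold lower in MDST8 than in HUTU-80 (limma adjusted p = 1.24e-07). KLF4 was higher in NCI-H716 than in MDST8 by 3.14 ± 0.21 and than in HUTU-80 by 4.12 ± 0.23 (limma adjusted p = 1.49e-07 and 5.00e-08). The ERK feedback list gave 6 higher and 6 lower, 8 and 5, and 7 and 6 in the same order of comparisons, with SPRY1, an inhibitor of receptor signalling, at least 13.2-fold higher in NCI-H716 than in MDST8 (adjusted p = 1.20e-10). DUSP4, a nuclear kinase phosphatase, was higher than in HUTU-80 by 4.81 ± 0.21 in NCI-H716 and 5.03 ± 0.21 in MDST8 (limma adjusted p = 5.92e-09 and 5.13e-09).

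The upstream list gave 5 higher and 5 lower in NCI-H716 against MDST8, 4 and 4 in NCI-H716 against HUTU-80 and 4 and 4 in MDST8 against HUTU-80. ELK3 was lower in NCI-H716 than in MDST8 (−2.83 ± 0.17, limma adjusted p = 6.69e-08), and SRF was lower than in HUTU-80 in NCI-H716 (−0.70 ± 0.17, 0.0044) and MDST8 (−0.66 ± 0.17, 0.0064). AP-1 target genes had 1 higher and 9 lower in NCI-H716 than in MDST8 (median −2.18), 2 and 5 against HUTU-80, and 7 and 3 in MDST8 against HUTU-80 (median 0.50). The matrix protein SPP1 was at least 15.7-fold lower in NCI-H716 than in MDST8 and the collagenase MMP1 at least 17.5-fold lower (limma adjusted p = 1.64e-10 and 2.84e-05), and the urokinase receptor PLAUR was at least 15.5-fold higher in MDST8 than in HUTU-80 (adjusted p = 1.29e-06). For the integrated stress response the counts were 5 higher and 3 lower, 2 and 3, and 2 and 5, with XBP1, a factor of the unfolded protein response, higher in NCI-H716 than in MDST8 by 2.89 ± 0.13 (limma adjusted p = 6.50e-09).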

How the data were processed

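Total RNA labelled with biotin was run on the GeneTitan system on U133 Plus arrays, per the labels' protocols, and probe set names show the perfect-match version. Values came as log2 intensity of each probe set, which the authors made by RMA per the submitters' processing notes. RMA corrects background, quantile normalizes and summarises probes. Quantile normalization equalises the arrays, so a shift shared by most genes would not be seen. Its version and settings were not given in the sources used here.

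Groups came from the sample titles. Probe sets naming 1 gene (40920) were kept, 864 naming several were left out, and each of 19774 genes was taken by its brightest probe set. Differences were fitted with limma 3.58.1 in R 4.3.3 (package data.table, version 1.17.8) with terms for line and construct over 11 samples, a variance trend and Benjamini-Hochberg adjustment at 0.05 (two-sided, 5 residual degrees of freedom). The fits were tested on simulated data. Precision is limited by the number of arrays, with 1 control in each line. The genes and lists were chosen with earlier results of these data known. Named besides the 10 genes were at most 4 called genes per direction, list and comparison between lines, at most 3 with both clusters, and the 5 most like the most variable of the 10. Where a gene lay at or below background on every array of a line, a fold is a bound from the brighter side's mean over the background level. Alternatives were the mean or the most variable probe set, median centring, no variance trend, a filter on background, separate HUTU-80 arrays, other terms or samples, and leaving out each array or line. Motifs and microRNA sequences were read from RefSeq, build GRCh38.p14.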

Additional observations from a re-analysis of the deposited data

Results flagged for a closer look

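Some of the 10 genes stood above the control on every construct sample of a line and below it on every construct sample of another. Samples per line were 3 in NCI-H716, 3 in MDST8 and 2 in HUTU-80, and none of these differences was tested. For ATF3 the mean change from control was 0.864 in NCI-H716 and 1.72 in MDST8, against −0.551 in HUTU-80, so that the lines differed by 1.41 and 2.26. The MDST8 control of ATF3 was below background, so that 1.72 and 2.26 are not exact. JUN averaged −0.356 in MDST8 and 0.823 in HUTU-80, a difference of −1.18. FOSL1 averaged 0.933 in NCI-H716, −0.309 in MDST8 and 1.13 in HUTU-80, which puts NCI-H716 1.24 above MDST8 and MDST8 −1.44 from HUTU-80, with the controls of NCI-H716 and HUTU-80 below background. DUSP1 averaged 0.823 in NCI-H716 and −0.296 in MDST8, a difference of 1.12.

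FOS averaged 0.541 in MDST8 and −0.573 in HUTU-80, a difference of 1.11, and all its MDST8 values were below background. JUNB averaged 0.322 in NCI-H716, −0.601 in MDST8 and −0.380 in HUTU-80, so that NCI-H716 differed by 0.923 from MDST8, where it was below background, and by 0.702 from HUTU-80. Every change of a line is taken from the same control array, so an error in that array would move all changes of the line together.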

How the results depend on the processing

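Over 21 settings for each pair of lines, 8 to 10 of the 10 genes were called in MDST8 against HUTU-80, 5 to 8 in NCI-H716 against HUTU-80 and 4 to 7 in NCI-H716 against MDST8, and 0 were called between the clusters in 23. Median centring called 12965 genes in MDST8 against HUTU-80 instead of 8569. Between NCI-H716 and MDST8, where neither passed as reported, median centring turned JUN to 0.0795 and ATF3 to 0.0763, and leaving out single arrays or a line gave −0.51 to 0.21 for JUN (called at the low end, without the MDST8 array with both clusters, limma adjusted p = 0.0495) and −0.40 to 0.14 for ATF3. DUSP1 between NCI-H716 and HUTU-80, not called as reported, was called in 4 of 21 settings. Between the clusters IER2 turned to −0.0318 with median centring, and with arrays or a line left out IER2 lay at −0.139 to 0.145, FOS at −0.374 to 0.0488 and FOSL1 at −0.563 to 0.0099. For miR-200c141 against control, 3 genes were called with separate HUTU-80 arrays, 4 with only the groups compared, and 0 to 22 with arrays or a line left out, 10 without the MDST8 control and 22 without MDST8. For miR-200ba429 the range was 0 to 6, the highest without MDST8. With both clusters against control (1214 genes, 2 of the 10), the counts were 662 and 1 with the mean of probe sets, 679 genes without the trend, and 19 and 0 with only the groups compared. With no replicate block, that is without the line term, they were 0 and 0. Leaving out arrays or a line gave 362 to 1680 genes, 362 without HUTU-80 and 383 without the NCI-H716 control, and 1 to 4 of the 10, 4 without MDST8 and 1 without NCI-H716 or its control. Against single clusters (329 and 2) the counts were 118 and 1 with the mean of probe sets, 509 genes with separate HUTU-80 arrays, 98 and 1 without the trend, 506 genes with the filter, 154 with only the groups compared, and 0 and 0 with no replicate block. Arrays or a line left out gave 85 to 1083 genes, 85 without HUTU-80, 103 without the MDST8 array with both clusters, 577 without NCI-H716 and 1083 without its array with both clusters, and 1 to 3 of the 10, the highest without MDST8. The fit without such an array assumes that the lone one varies like the other groups. Where counts fell with samples left out, fewer samples entered, and the cause was otherwise not tested. EGR1 was called in 21 of 23 settings against control and 22 of 23 against single clusters, ATF3 in 17 and 8. JUN with both clusters was at 1.39 without MDST8 and −0.53 without NCI-H716, DUSP1 at 1.47 and −0.34. No paired analysis was possible because the labels give no shared replicate numbers, apart from the line term.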
